A study of Mus musculus with 6 samples.

Results

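Genes of local steroid metabolism were followed across the cell types of mouse lower abdominal muscle (LAM). They were *Akr1c18*, *Hsd11b1*, *Cyp7b1*, *Srd5a1*, *Hsd17b11* and *Hsd17b4*, and they were taken by name. The choice of these genes and of their partner lists was made with earlier results of these data known. All 6 of 6 were found among the 16494 genes of the table. Levels were described in every cell type set by marker genes, and WT1 to WT3 were compared with Arom1 to Arom3 in each type that every mouse held in sufficient number.

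Steroid hormones act on a tissue at the level that its own enzymes leave. Dehydrogenases and reductases of the short-chain and aldo-keto families switch progestogens, glucocorticoids, androgens and estrogens between active and weak forms, cytochrome P450 hydroxylases clear oxysterols and adrenal androgens, and sulfotransferases inactivate estrogens. Fibroblasts and adipose stroma are known sites of such conversion outside the endocrine glands.

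The mice were adult males of 9 to 10 weeks on the FVB/N background. Arom1 to Arom3 were *Aromhum* mice, which carry the human aromatase gene *CYP19A1* under its own promoters and develop scrotal hernia with LAM fibrosis, and WT1 to WT3 were wild-type. Single cells of LAM were sequenced with the 10x Genomics 3′ protocol, 1 mouse per library and 3 mice per genotype. Dissociated mononuclear cells were passed through a filter that removes multinucleated fibers, so mature muscle is represented only by its nuclei or fragments, and hernia, fibrosis and genotype cannot be told apart in this design.

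The human transgene checked the labels: *CYP19A1* had 0 UMIs (unique molecular identifiers, 1 per captured transcript) in each WT library and 767, 792 and 784 UMIs in Arom1, Arom2 and Arom3. After barcodes with under 200 genes or under 1000 UMIs were left out, 59227 of 63647 barcodes remained, 7505 to 12999 per mouse, and the median was 5621 to 6412 UMIs per cell in WT and 7057 to 9360.5 in *Aromhum* mice. Barcodes over 5% mitochondrial UMIs made up 64.7% of the kept cells of WT2 and 26.6% to 39% of the other mice. Among the *Aromhum* mice, Arom3 stood apart: its *Mmp3*-high fibroblast group held 8 cells and its macrophages 85, against 692 and 1213 cells and 1520 and 842 cells in Arom1 and Arom2. In all, 471 barcode sequences occurred in more than 1 library.

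Cell types were named from marker genes. In each of the 10 named types the whole marker list had its highest level in that type, for example 9 of 9 for fibroblast-like cells and 7 of 7 for glial cells. The 5 groups within fibroblast-like cells were named in the same manner as *Dmkn*-high, *Mmp3*-high, *Esr1*-high, tenocyte and FAP (fibro-adipogenic progenitor) groups, and 1 FAP marker, *Myoc*, was higher in another group. The group markers are genes that the study reports for its own clusters of cells from these samples. Clusters were named by the same lists, so a marker being highest in its own type or group is a description. The 6 enzyme genes had no part in the clustering. Levels are given as CPM, the UMIs of a gene scaled to the same total of UMIs in every cell type and mouse, and levels are compared within a gene only, because 3′ UMIs are not per length. The genes lie on 5 chromosomes, and in a sum over all cells fewer cells of a type and less RNA per cell cannot be told apart.

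*Akr1c18* encodes the aldo-keto reductase that turns progesterone into a weak dihydro form. The gene spans chr13:4132615-4150654 on the minus strand (GENCODE M21, mm10). It is one of a cluster of closely related Akr1c genes, and reads shared between those copies would make its count uncertain. Its RefSeq promoter, 250 bases before to 50 after the start (GRCm38.p6, minus strand, chr13:4150597-4150896), is shown since *Akr1c18* had the most group-restricted UMIs of the 6 genes. Capitals mark the single GC box found, GGGCGG read on the opposite strand, 73 bases before the start.
Akr1c18: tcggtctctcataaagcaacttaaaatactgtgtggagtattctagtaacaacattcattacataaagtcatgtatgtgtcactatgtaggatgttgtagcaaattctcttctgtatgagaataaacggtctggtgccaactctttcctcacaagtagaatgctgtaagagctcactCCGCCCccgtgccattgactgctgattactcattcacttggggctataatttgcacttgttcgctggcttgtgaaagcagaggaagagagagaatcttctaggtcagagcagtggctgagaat

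Among named cell types, *Akr1c18* was highest in fibroblast-like cells at 23.8 ± 8.48 CPM (SD, n = 6 mice; range 11.9 to 34.1). Fibroblast-like cells held a mean of 79.2% of its UMIs per mouse. Of the named types, macrophages followed at 8.9 ± 7.37 CPM, and their range of 1.45 to 18.2 CPM overlapped that of fibroblast-like cells. The macrophage UMIs came from 43 of 2888 cells, of which 23 were marked as doublets and held 86 of the 128 UMIs, and the other cell types had mean levels from 0.323 to 3.31 CPM with overlapping ranges. Clusters that could not be named, 5112 cells in all, had 17.9 ± 13.3 CPM (range 3.38 to 42) and held 3.27% to 38.6% of the *Akr1c18* UMIs of a mouse, and in Arom3 their level was above the 22.8 CPM of fibroblast-like cells. Under both upper limits of the study (2500 genes and 5% mitochondrial UMIs) the order turned, with macrophages at 53.1 ± 41.7 CPM (212 UMIs) and fibroblast-like cells at 23.6 ± 21.6 CPM (1751 UMIs; SD, n = 6). In WT mice no UMI was seen in 378 mesothelial cells, which allows up to 0.794% of cells with a UMI, nor in 1767 MuSC or myoblast cells, which allows up to 0.17%. Such limits concern cells with a UMI, not cells that express the gene.

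*Hsd11b1* encodes the reductase that regenerates active glucocorticoid from its inert keto form inside cells, with cofactor supplied by the product of *H6pd*. The gene spans chr1:193221634-193264075 on the minus strand, and it overlaps *Lamb3* on the other strand and *Gm38118* on its own. Its RefSeq promoter (GRCm38.p6, minus strand, chr1:193242311-193242610) lies inside these bounds, at a start downstream of the outermost one. It is shown because this gene is later compared with glucocorticoid-responsive genes. None of the 5 motifs searched was present, so no letter is in capitals.
Hsd11b1: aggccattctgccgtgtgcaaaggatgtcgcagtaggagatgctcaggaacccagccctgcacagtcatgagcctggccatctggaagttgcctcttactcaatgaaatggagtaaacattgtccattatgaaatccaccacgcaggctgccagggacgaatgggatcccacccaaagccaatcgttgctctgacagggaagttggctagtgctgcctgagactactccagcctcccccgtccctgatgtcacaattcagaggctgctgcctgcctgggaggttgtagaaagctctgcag

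*Hsd11b1* was highest in fibroblast-like cells at 208 ± 28.6 CPM (SD, n = 6) and next in MuSC or myoblast cells at 154 ± 20.9 CPM. Every mouse had the fibroblast-like level above the MuSC level, although the ranges of 168 to 254 and 126 to 184 CPM overlapped. The MuSC range lay above that of the next type, T cells, at 60.2 ± 20.1 CPM, where the summed CPM of 9 fibroblast markers ran from 220 to 5714 in WT and from 4828 to 16669 in *Aromhum* mice. In MuSC or myoblast cells that sum was 801 to 3118 and 3550 to 4016 CPM. A UMI of *Hsd11b1* was seen in 51.6% ± 4.44 of fibroblast-like cells, 44% ± 5.29 of MuSC or myoblast cells and 1.39% ± 0.825 of endothelial cells (SD, n = 6), at median depths of 9918, 4284 and 4074 UMIs. With every cell thinned to 1000 UMIs the shares were 16.3%, 14.3% and 0.249%. Endothelial cells had the lowest level, 4.45 ± 3.22 CPM.

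*Cyp7b1* encodes an oxysterol and steroid hydroxylase that acts on side-chain hydroxylated cholesterol and on dehydroepiandrosterone. The gene spans chr3:18071950-18243338 on the minus strand. Its levels were 20.7 ± 12.9 CPM in smooth muscle cells and pericytes and 17 ± 3.35 CPM in glial cells (SD, n = 6), with overlapping ranges. Fibroblast-like cells came next at 12 ± 17.1 CPM, an SD above the mean, since 2 mice stood far above the other 4. Glial cells ranged from 11.7 to 21.8 CPM, the narrowest of these 3 types.

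*Srd5a1* encodes a steroid reductase that turns testosterone into dihydrotestosterone and progesterone into its reduced form. The gene spans chr13:69573449-69611442 on the minus strand and overlaps *Nsun2* on the other strand. Its RefSeq promoter (GRCm38.p6, minus strand, chr13:69611414-69611713) held 4 GC boxes, in capitals, and is shown as the contrast to the promoters above. Of all 32851 promoters of this length, 35.7% held a GC box on either strand.
Srd5a1: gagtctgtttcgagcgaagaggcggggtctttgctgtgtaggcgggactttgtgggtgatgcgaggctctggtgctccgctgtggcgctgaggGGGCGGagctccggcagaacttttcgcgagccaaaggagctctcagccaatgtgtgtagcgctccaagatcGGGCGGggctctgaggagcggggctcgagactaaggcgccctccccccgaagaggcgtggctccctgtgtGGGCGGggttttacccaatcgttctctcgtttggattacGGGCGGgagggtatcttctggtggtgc

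*Srd5a1* was the rarest of the 6 genes, with 651 UMIs in all. It was highest in glial cells at 7.45 ± 2.67 CPM (SD, n = 6), and the glial range of 4.98 to 11.7 CPM lay above the 1.07 to 4.29 CPM of mesothelial cells, the next type. From mesothelial cells down, each type overlapped the next in order, with myonuclei and T cells last at 0 CPM in every mouse. No UMI was seen in 1487 myonuclei, which allows up to 0.202% of cells with a UMI, or in 402 T cells, which allows up to 0.746%. These limits and all intervals on counts cover counting error only.

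The promoter of *Hsd17b11* held 1 GC box, and *Cyp7b1* and *Hsd17b4* had none taken from the table. The other motifs were an estrogen response element (GGTCANNNTGACC, in 0.07% of all promoters), a glucocorticoid or androgen response element (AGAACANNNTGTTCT, 0.00913%), an AP-1 site (TGACTCA, 5.2%) and a TATA box (TATAAA, 13.6%). They were searched on both strands and none was in the 4 promoters, which says only that these letters were not in these windows. GC content was 42.3% for *Akr1c18*, 54.7% for *Hsd11b1*, 63% for *Srd5a1* and 57% for *Hsd17b11*, beside a median of 52.7%.

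*Hsd17b11* encodes a dehydrogenase of lipid droplets that can oxidise androgen metabolites. The gene spans chr5:103989762-104021919 on the minus strand. It was highest in glial cells at 127 ± 19.8 CPM (SD, n = 6; 95.1 to 153), apart from lymphatic endothelial cells in the next place at 49.1 ± 4.46 CPM (43.4 to 55.1). Lymphatic, fibroblast-like, macrophage, mesothelial and endothelial cells, from 49.1 down to 42.8 CPM on average, all overlapped. Myonuclei had the lowest level, 7.87 ± 3.98 CPM.

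*Hsd17b4* encodes the peroxisomal multifunctional enzyme that shortens fatty acid chains and oxidises estradiol to estrone. The gene is annotated as protein coding on chromosome 18, from 50128201 to 50196269 on the plus strand. It was the most even of the 6 genes, with means from 14.7 CPM in T cells to 48.8 CPM in glial cells, and each type overlapped the next in order except endothelial cells (23.3 to 27.6 CPM), which lay above MuSC or myoblast cells (10.6 to 22.9 CPM). Glial cells thus ranked first for *Srd5a1*, *Hsd17b11* and *Hsd17b4*.

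**Figure D1:**
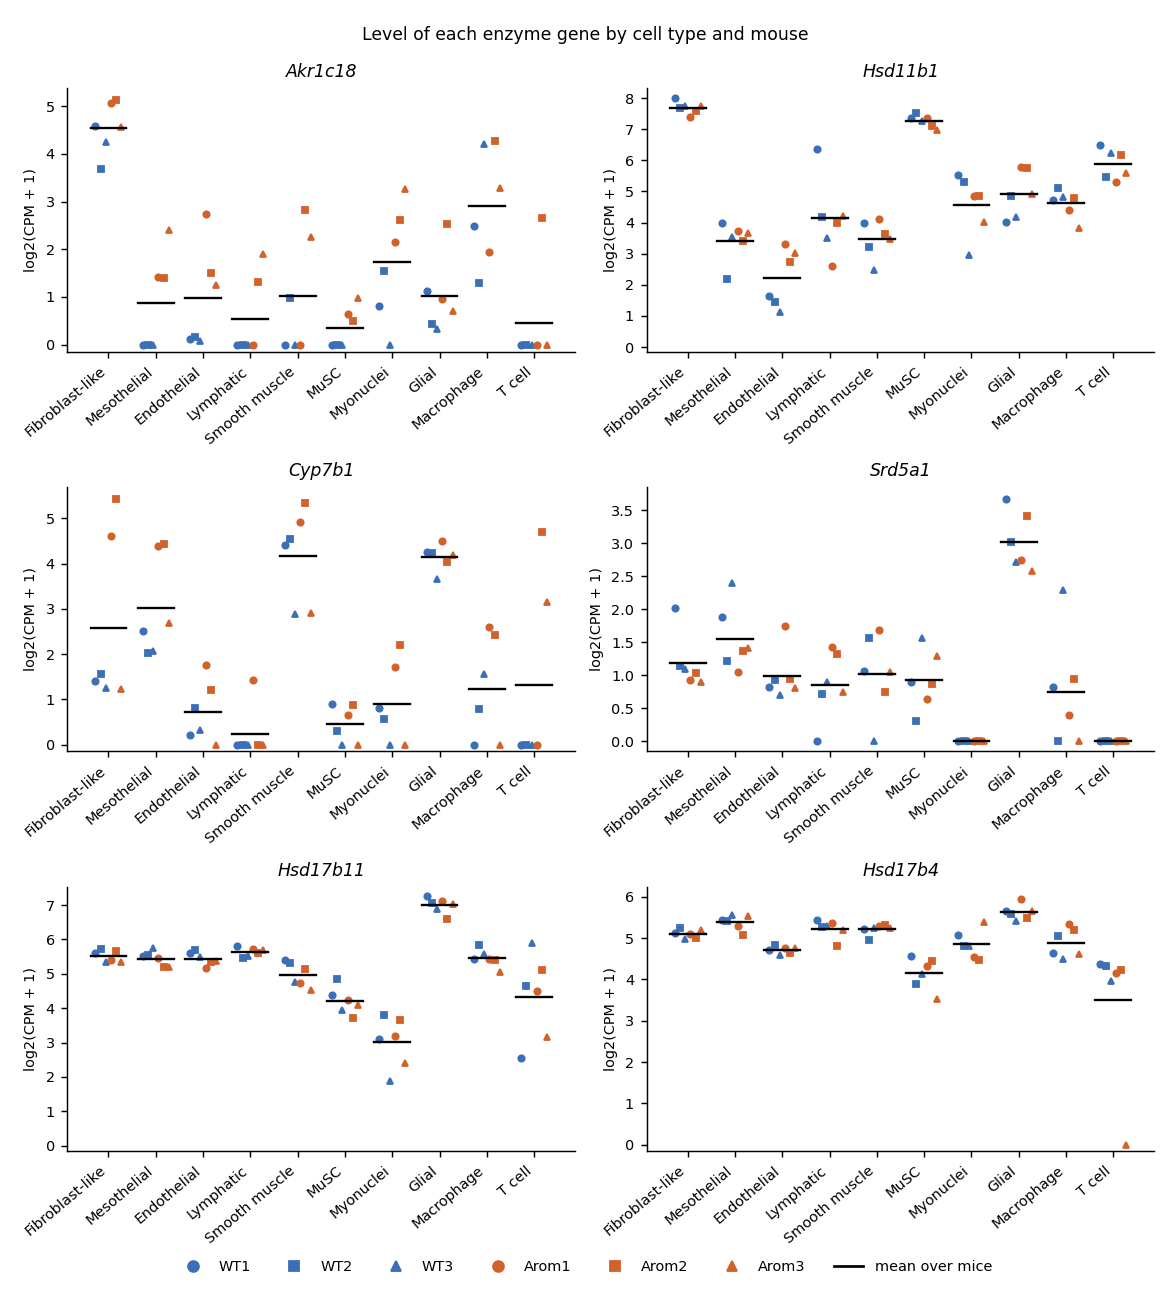
Level of the 6 genes in 10 cell types, as log2(CPM + 1) on the vertical axis; each point is 1 mouse (blue WT, orange *Aromhum*) and the bar is the mean of the 6 log2 values. *Hsd11b1* stands highest in fibroblast-like and MuSC cells, *Srd5a1* and *Hsd17b11* in glial cells, and the *Cyp7b1* points of Arom1 and Arom2 lie above the rest in fibroblast-like cells.

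Genes with the most similar pattern were found from the Pearson r of mean log2(CPM + 1) over 14 profiles, the 9 other cell types and the 5 fibroblast groups, among 11350 genes; the profiles share the same 6 libraries. *Akr1c18* was most like *Gm9992*, *Adamts16* and *Krt23* (r = 0.91, 0.9 and 0.89), all 3 highest in the *Dmkn*-high group. *Hsd11b1* was most like *Maob*, *Hk2* and *Fgfr1* (r = 0.94, 0.93 and 0.93), all highest in the *Mmp3*-high group. *Cyp7b1* was most like *Adh7* and *Cfi* (r = 0.84 and 0.82). *Srd5a1* was most like *Shpk* (r = 0.9) and *Hsd17b11* most like *Prkce* (r = 0.91), both highest in glial cells, and *Hsd17b4* was most like *Ift22* (r = 0.92).

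Within fibroblast-like cells the genes divided between groups. The *Dmkn*-high group, named for *Dmkn*, *Sbsn* and *Krtdap*, had *Akr1c18* at 111, 105 and 202 CPM in WT1 to WT3 and 185, 155 and 146 CPM in Arom1 to Arom3. This group held 90.5% of the 7001 *Akr1c18* UMIs of fibroblast-like cells, and 87.4% to 99.3% in any mouse. Its lowest mouse, at 105 CPM, was above the highest value of any other group with at least 10 cells in a mouse, 12 CPM in the *Mmp3*-high group. Tenocyte and FAP groups had 0.473 ± 0.612 and 0.464 ± 0.292 CPM (SD, n = 6).

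*Hsd11b1* had a different order. The FAP group had 374, 342 and 360 CPM in WT1 to WT3 and 294, 286 and 374 CPM in Arom1 to Arom3, above tenocyte, *Esr1*-high and *Dmkn*-high groups in every mouse. Tenocyte, *Esr1*-high and *Dmkn*-high groups overlapped, at 159 ± 61.5, 119 ± 37.9 and 114 ± 50 CPM (SD, n = 6). Of the tenocyte cells, 1459 lay in a cluster that had 4 of the 6 tenocyte markers and lacked Scx and Wif1. Under both upper limits of the study a cluster with the same 4 markers went unnamed and the tenocyte level was 12.1 ± 7.58 CPM (range 0 to 21.3; SD, n = 6), below the *Esr1*-high and *Dmkn*-high groups at means of 166 and 117 CPM. The *Mmp3*-high group, with 10 or more cells in 3 mice only, had 514 CPM in WT1, 291 CPM in Arom1 and 383 CPM in Arom2.

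*Cyp7b1* was concentrated in the *Mmp3*-high group of 2 mice. There it had 97.1 CPM in Arom1 (1012 UMIs, 95% Poisson interval 91.2 to 103) and 150 CPM in Arom2 (2007 UMIs, 144 to 157), against 3.75 CPM in WT1 (2 UMIs in 55 cells, 0.454 to 13.6) and 0 UMIs in the 8 cells of Arom3, which allows 27.8 CPM. The group held 65.5% and 67.4% of the fibroblast-like *Cyp7b1* UMIs of Arom1 and Arom2 and 0% of those of Arom3. Every other group of these 2 mice except tenocytes was also above its WT range: 13.6 and 30.9 CPM against 0 to 0.48 CPM in the *Dmkn*-high group, 8.86 and 11.7 against 0.98 to 1.72 CPM in the *Esr1*-high group, and 8.7 and 12 against 2.06 to 2.72 CPM in the FAP group. In Arom3 these groups had 0.27, 1.2 and 2.05 CPM. Under both upper limits of the study this did not hold in the FAP group, where Arom1 and Arom2 had 1.84 and 5.99 CPM against 2.98 to 4.78 CPM in WT, and the *Dmkn*-high level of Arom1 was 0.789 CPM, from 1 UMI.

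**Figure D2:**
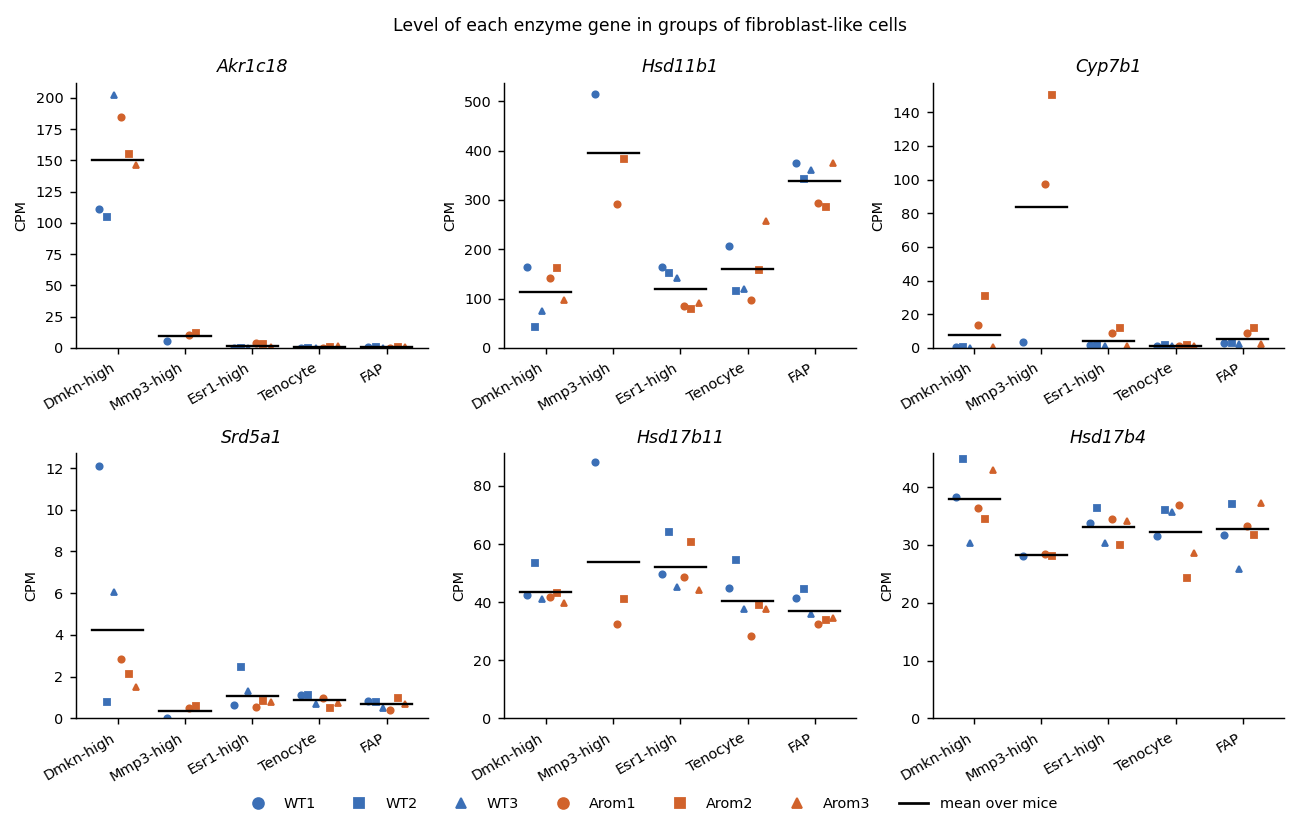
CPM of the 6 genes in the 5 groups of fibroblast-like cells; each point is 1 mouse with at least 10 cells of the group and the bar is the mean. *Akr1c18* rises above 100 CPM only in the *Dmkn*-high group, and the *Cyp7b1* points of Arom1 and Arom2 reach 97.1 and 150 CPM in the *Mmp3*-high group.

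**Figure D3:**
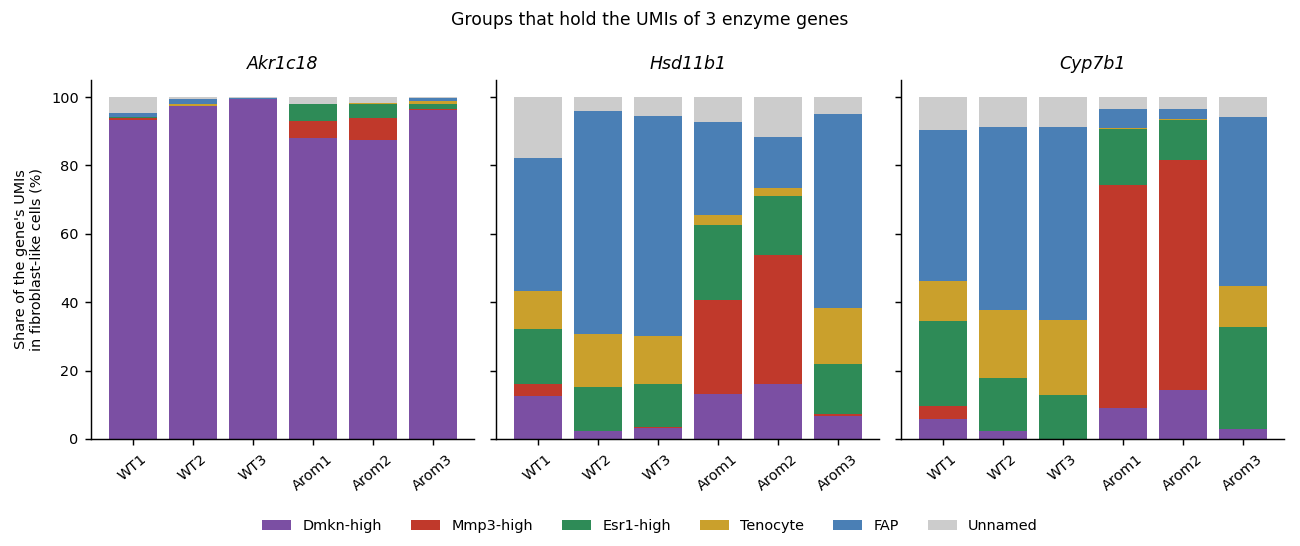
Share, in percent, of each mouse's fibroblast-like UMIs of *Akr1c18*, *Hsd11b1* and *Cyp7b1* that came from each group, stacked to 100%. The *Dmkn*-high group fills most of every *Akr1c18* bar, and the *Mmp3*-high group appears mainly in the *Hsd11b1* and *Cyp7b1* bars of Arom1 and Arom2.

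The genotypes were first compared over all fibroblast-like cells, 22870 in number. None of the 6 genes passed the quasi-likelihood test of edgeR, Benjamini-Hochberg adjusted at 0.05, beside 13% of the 13949 genes tested there (7.25% higher and 5.8% lower in *Aromhum* mice). The unadjusted p was under 0.05 for 2 of the 6, *Akr1c18* and *Cyp7b1*, and for 4657 of the 13949 genes. DESeq2 called *Cyp7b1* among the 6, beside 2870 of 16494 genes.

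*Cyp7b1* had the widest difference. Its levels in fibroblast-like cells were 1.63, 1.93 and 1.39 CPM in WT1 to WT3 and 23.6, 41.9 and 1.36 CPM in Arom1 to Arom3. Arom1 and Arom2 were far above every WT mouse and Arom3 was below them all, so the groups overlapped. The log2 fold change was 3.75 ± 1.09 (SE, n = 3 per genotype; adjusted p = 0.0614, the quasi-likelihood test of edgeR, Benjamini-Hochberg adjusted). DESeq2 gave an adjusted p of 0.00854 for the same difference. Without Arom3 the log2 fold change was 4.29 ± 0.273 (adjusted p = 3.36e-04, edgeR), in a fit that called 4123 of 14010 genes.

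The *Mmp3*-high group made up 14.1% and 17.9% of the fibroblast-like cells of Arom1 and Arom2, 0.228% of those of Arom3, and 1.54%, 0.0816% and 0.242% of those of WT1 to WT3. With that group left out, the log2 fold change of *Cyp7b1* was 2.45 (adjusted p = 0.0799, edgeR).

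*Akr1c18* had levels of 23.1, 11.9 and 18.1 CPM in the fibroblast-like cells of WT1 to WT3 and 32.6, 34.1 and 22.8 CPM in Arom1 to Arom3. Arom3 fell just below WT1, and the log2 fold change was 0.73 ± 0.289 (adjusted p = 0.131, edgeR). The adjusted p was 0.0406 without Arom3, and 0.0258 in limma when the groups other than *Mmp3*-high were weighted equally. Within the *Dmkn*-high group itself the log2 fold change was 0.24 ± 0.245 (adjusted p = 0.683, edgeR), with all WT and *Aromhum* values overlapping.

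*Hsd11b1* had 254, 206 and 213 CPM in fibroblast-like cells of WT1 to WT3 and 168, 191 and 215 CPM in Arom1 to Arom3, a log2 fold change of −0.26 ± 0.136 (adjusted p = 0.224, edgeR). *Srd5a1* had 3.07, 1.2 and 1.14 CPM in WT1 to WT3 and 0.91, 1.05 and 0.87 CPM in Arom1 to Arom3. Its WT and *Aromhum* values did not overlap, and its log2 fold change of −1.0 ± 0.427 (adjusted p = 0.152, edgeR) rested on WT1, since it was −0.30 without that mouse. *Hsd17b11* and *Hsd17b4* had log2 fold changes of −0.11 ± 0.147 and −0.04 ± 0.0993 (adjusted p = 0.628 and 0.802, edgeR), with overlapping values. Over all cells together, 0 of the 6 genes passed the same test, beside 23.5% of 15334 genes. There 2 of the 6, *Akr1c18* and *Cyp7b1*, were at an unadjusted p under 0.05 (adjusted p = 0.0572 and 0.0697, edgeR), as were 6155 of all genes. DESeq2 called the same 2 genes, beside 5479 of 16494 genes.

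The genotypes were then compared within the 4 fibroblast groups that every mouse held with at least 20 cells. Of 18 comparisons, 2 passed, and both were in the *Esr1*-high group, where 17% of 12287 genes passed (8.33% higher and 8.69% lower in *Aromhum* mice). Among these calls, *Akr1c18* reached the filter on low counts only in the *Aromhum* mice, so its direction was set. The *Esr1*-high group is defined by *Esr1*, the estrogen receptor gene, with *Greb1*, *Nppc* and others. In the tenocyte, *Dmkn*-high and FAP groups 1.86%, 0.947% and 3.53% of genes passed and none of 3, 5 and 4 enzyme genes. Of these, *Srd5a1* in the *Dmkn*-high group, *Hsd17b11* in the tenocyte and FAP groups, and *Cyp7b1* in the FAP group were at an unadjusted p under 0.05, beside 1981 of 10355 genes in the tenocyte, 1896 of 10881 in the *Dmkn*-high and 2331 of 11397 in the FAP group. None was called by DESeq2, and *Cyp7b1* in the FAP group passed in the fit without Arom3 (log2 fold change 2.04, adjusted p = 9.34e-04, edgeR). That fit called 935 of 11617 genes, against 402 of 11397 with all mice. With cells limited to 5% mitochondrial UMIs, *Hsd17b11* passed in the FAP group at −0.64 (adjusted p = 0.0284), against −0.28 and 0.186 with all kept cells. *Cyp7b1* in the *Dmkn*-high group was below the filter on low counts with all mice. It passed without Arom3 (5.82, adjusted p = 7.37e-05, edgeR), beside 1091 of 10980 genes, against 103 of 10881 with all mice. With 4 WT UMIs in all, it reached the filter there only through Arom1 and Arom2, so that value is a description. *Akr1c18* in the FAP group passed at resolution 0.4 (1.5, adjusted p = 0.0317, edgeR).

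*Hsd11b1* was lower in the *Esr1*-high group of *Aromhum* mice. Its levels there were 165, 152 and 142 CPM in WT1 to WT3 and 85.7, 79 and 91.5 CPM in Arom1 to Arom3. Every *Aromhum* mouse, Arom3 included, was below every WT mouse, and the log2 fold change was −0.89 ± 0.123 (SE, n = 3 per genotype; adjusted p = 0.00568, the quasi-likelihood test of edgeR, Benjamini-Hochberg adjusted). The call held in all 13 of the alternatives that could be fitted for this group, including all 6 fits without 1 mouse, where the log2 fold change ranged from −0.94 to −0.80. Under both upper limits of the study no test was run, since WT2 and WT3 kept 6 and 16 cells of this group, and the direction of the mean turned: *Hsd11b1* had 115 and 166 CPM in WT1 and WT3 and 204, 265 and 79.7 CPM in Arom1 to Arom3, from 12 UMIs in Arom3 and 14 in WT3.

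Markers of other groups in the *Esr1*-high cells moved with this difference. The summed CPM of the 7 FAP markers, a group with higher *Hsd11b1*, was 2546 to 3006 in WT and 703 to 1225 in *Aromhum* mice, with 3 of 7 markers lower and 1 higher in every *Aromhum* mouse. Most of that difference was *Myoc*, at 1703, 1702 and 1467 CPM in WT1 to WT3 and 58, 56.7 and 153 CPM in Arom1 to Arom3, which was not highest in the FAP group. The summed CPM of the 9 *Esr1*-high markers was 6558 to 28947 in WT and 29649 to 41988 in *Aromhum* mice, with 6 of 9 higher in every *Aromhum* mouse. Most of that sum was *Ren1* and *Pnoc*. *Ren1* overlapped between genotypes, at 19201, 1042 and 3828 CPM in WT1 to WT3 and 26209, 15344 and 23517 CPM in Arom1 to Arom3. The 8 *Mmp3*-high markers summed to 570 to 1367 CPM in WT and 1197 to 1787 CPM in *Aromhum* mice. None of these markers was at 0 in every mouse, and their part in the result was not tested.

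*Akr1c18* in the *Esr1*-high group rested on very few cells. It had 2, 0 and 0 UMIs in WT1 to WT3 and 106, 99 and 15 UMIs in Arom1 to Arom3, in 65 of 5664 cells, of which 64 had over 2500 genes. A single cell held 44 of the 106 UMIs of Arom1, and 1 cell held 11 of the 15 of Arom3. Under both upper limits of the study no *Akr1c18* UMI was left in this group in any mouse. The pooled ratio was 22.1 with a 95% counting interval of 6.05 to 184, and the fitted log2 fold change was 4.25 ± 1.04 (adjusted p = 0.0297, edgeR). The gene reached the filter on low counts only in the *Aromhum* mice, so a higher level there was a condition of its being tested, and these values are a description. The call was lost without WT1, which held the only WT UMIs (log2 fold change 8.48, adjusted p = 0.0882), and without WT2 or WT3 (adjusted p = 0.0933 and 0.0911), held without Arom3 (0.00114), and could not be fitted without Arom1 or Arom2. The 3 *Dmkn*-high markers moved the same way in these cells, from 29.7 to 40.4 CPM in WT to 64.1 to 110 CPM in *Aromhum* mice, with 2 of 3 higher in every *Aromhum* mouse, and their part was not tested. *Cyp7b1* in this group did not pass, at a log2 fold change of 2.25 ± 0.842 (adjusted p = 0.103, edgeR). It passed without Arom3 (2.72, adjusted p = 3.45e-04, edgeR), beside 3181 of 12040 genes. In DESeq2 with all mice it passed as well (2.29, adjusted p = 0.022), beside 2417 of 16494 genes.

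**Figure D4:**
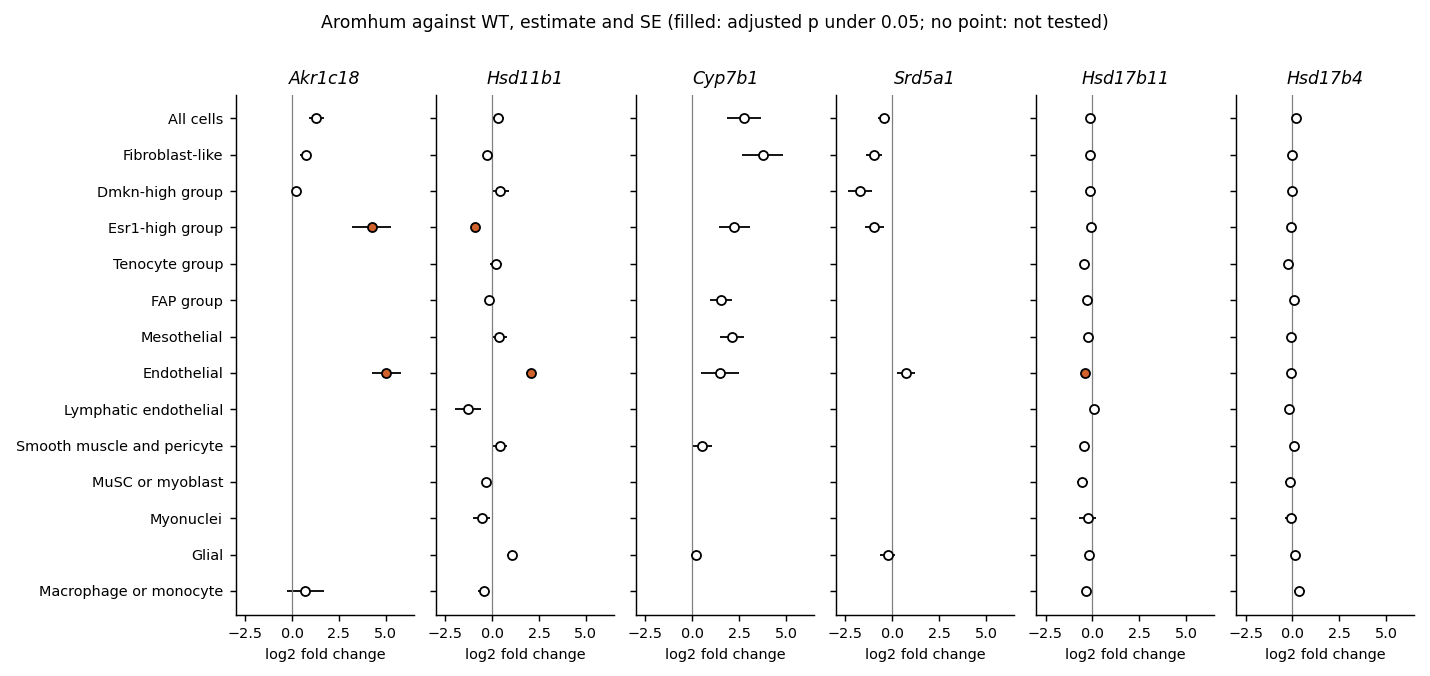
Log2 fold change, *Aromhum* against WT, with its SE for each gene in each cell type tested; filled points passed at an adjusted p of 0.05 in edgeR's quasi-likelihood test and a missing point was not tested. Filled points are *Akr1c18* and *Hsd11b1* in the *Esr1*-high group and *Akr1c18*, *Hsd11b1* and *Hsd17b11* in endothelial cells. The filled *Akr1c18* points reached the filter on low counts only in *Aromhum* mice, so their direction was set.

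Outside fibroblast-like cells, 3 of 32 comparisons passed over 8 cell types, and all 3 were in endothelial cells, where 19.6% of 12487 genes passed (11.1% higher and 8.52% lower in *Aromhum* mice). *Hsd11b1* had 2.1, 1.71 and 1.2 CPM in endothelial cells of WT1 to WT3 and 8.83, 5.62 and 7.21 CPM in Arom1 to Arom3. All *Aromhum* mice were above all WT mice, with a log2 fold change of 2.08 ± 0.27 (adjusted p = 0.00291, the quasi-likelihood test of edgeR, Benjamini-Hochberg adjusted). *Akr1c18* had 1, 2 and 1 UMIs in WT1 to WT3 and 65, 14 and 20 UMIs in Arom1 to Arom3, in 26 of 14738 cells, a pooled ratio of 37.7 with a 95% counting interval of 14.3 to 141. Its fitted log2 fold change was 5.03 ± 0.775 (adjusted p = 0.0051, edgeR). Here too *Akr1c18* reached the filter on low counts only in the *Aromhum* mice, so the value is a description.

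Fibroblast transcripts moved with both genes in endothelial cells. All 9 of 9 fibroblast markers were higher in every *Aromhum* mouse, and their summed CPM was 422 to 543 in WT and 1856 to 4632 in *Aromhum* mice. The endothelial cells with a *Hsd11b1* UMI carried 40834, 24334 and 22701 CPM of these markers in Arom1 to Arom3, against 1909, 2930 and 820 CPM in the other endothelial cells of the same mice. In WT1 to WT3 they carried 6934, 7249 and 2002 CPM, against 374, 448 and 404 CPM in the other cells. The cells with an *Akr1c18* UMI carried 50505, 41224 and 16050 CPM in Arom1 to Arom3, and 18 of the 20 UMIs of Arom3 lay in 1 cell marked as a doublet. In WT1 to WT3 such cells, 1, 2 and 1 in number, carried 26609, 23740 and 62.3 CPM. The 3 *Dmkn*-high markers summed to 4.03 to 13.7 CPM in endothelial cells of WT and 12.6 to 122 CPM of *Aromhum* mice, and the 8 *Mmp3*-high markers to 80.9 to 113 and 278 to 730 CPM. Of the 26 cells with an *Akr1c18* UMI, 20 had over 2500 genes. With cells limited to 5% mitochondrial UMIs, the log2 fold change fell to 0.71 for *Hsd11b1* and 1.67 for *Akr1c18* (adjusted p = 0.149 and 0.251, edgeR), and with both upper limits of the study neither passed the filter on low counts. Without marked doublets *Akr1c18* also fell below that filter, and *Hsd11b1* kept a log2 fold change of 2.08 (adjusted p = 0.00356). *Hsd11b1* had 1.14 (adjusted p = 0.0388) at resolution 0.4, and 1.11 (adjusted p = 0.0998) with groups of adjacent columns in place of clusters. The part of fibroblast RNA in these differences was not tested.

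*Hsd17b11* was lower in endothelial cells, at 47.2, 50.7 and 44.3 CPM in WT1 to WT3 and 35.1, 39.2 and 40.3 CPM in Arom1 to Arom3. The groups did not overlap and the log2 fold change was −0.37 ± 0.106 (adjusted p = 0.0389, edgeR). The call passed without Arom3 (adjusted p = 0.0315) and was lost without any 1 of WT1, WT2, WT3, Arom1 and Arom2 (0.0945, 0.0992, 0.0694, 0.139 and 0.105). It was also lost under both upper limits of the study (0.125), under the mitochondrial limit alone (0.0849), at resolution 0.4 (0.0914) and with adjacent columns (0.172). *Cyp7b1* passed in endothelial cells only without Arom3 (log2 fold change 2.18, adjusted p = 0.0301, against 1.5 and 0.322 with all mice, edgeR). Arom3 had 0 UMIs in 2040 cells, which allows up to 0.147% of cells with a UMI. The fit without Arom3 called 2844 of 12815 genes, against 2446 of 12487 with all mice. *Cyp7b1* reached the filter on low counts in that fit only in Arom1 and Arom2, so its value is a description.

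**Figure D5:**
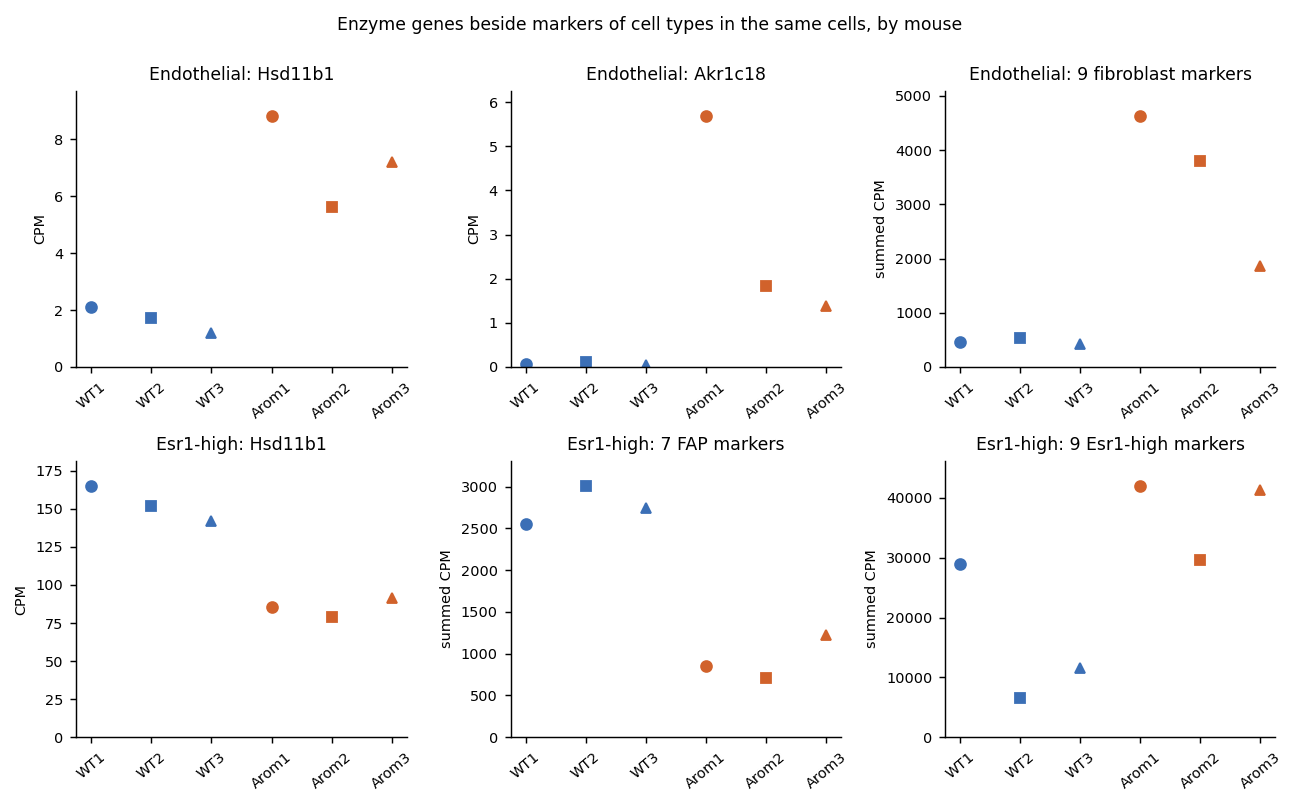
Values per mouse (blue WT, orange *Aromhum*) of enzyme genes in CPM and of marker lists in summed CPM. In endothelial cells *Hsd11b1*, *Akr1c18* and the sum of the 9 fibroblast markers are higher in Arom1 to Arom3. In the *Esr1*-high group *Hsd11b1* and the sum of the 7 FAP markers are lower there, and the sum of the 9 *Esr1*-high markers is higher. Not every marker moves as its sum does.

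The remaining 7 cell types gave no call, and a small change could be missed there. In simulated counts, 23% of 2-fold changes were recovered in macrophages, 25% in myonuclei, 34% in mesothelial cells and 51% to 72% in the rest. Of 4-fold changes, 89% to 98% were recovered. The share of all genes that passed was 0.0919% in lymphatic endothelial cells, 2.59% in smooth muscle cells and pericytes, 0.728% in MuSC or myoblast cells, 0.259% in myonuclei, 0.448% in macrophages, 0.473% in glial cells and 0.222% in mesothelial cells. At an unadjusted p under 0.05 there were 2 of 26 enzyme comparisons, beside shares of all genes that ran from 545 of 7619 in lymphatic endothelial cells to 1927 of 8930 in MuSC or myoblast cells. DESeq2 called 1, *Cyp7b1* in mesothelial cells, beside 584 of 16494 genes there. In glial cells *Hsd11b1* had 15.2, 27.8 and 17.3 CPM in WT1 to WT3 and 54.1, 52.8 and 29.2 CPM in Arom1 to Arom3. These did not overlap (log2 fold change 1.06 ± 0.276, adjusted p = 0.154, edgeR). It passed without Arom3 (1.33, adjusted p = 0.0344, edgeR), beside 122 of 9833 genes. With no filter on low counts it also passed (1.06, adjusted p = 0.0431, edgeR), beside 146 of 15507 genes. The fibroblast markers summed to 8504 to 10785 CPM in glial cells of WT and 11844 to 14110 CPM of *Aromhum* mice, with 3 of 9 higher in every *Aromhum* mouse, and their part was not tested.

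In mesothelial cells, *Cyp7b1* had 4.72, 3.08 and 3.22 CPM in WT1 to WT3 and 19.9, 20.5 and 5.46 CPM in Arom1 to Arom3. Every *Aromhum* mouse was above every WT mouse, with Arom3 near the WT values, and the log2 fold change was 2.14 ± 0.647 (adjusted p = 0.128, edgeR). Without Arom3 it was 2.54 (adjusted p = 0.00157, edgeR). That fit called 1375 of 10477 genes, against 26 of 11709 with all mice, and no gene was called without any other single mouse. The 8 *Mmp3*-high markers summed to 506 to 747 CPM in mesothelial cells of WT mice and to 15832, 12381 and 1253 CPM in Arom1 to Arom3, with 1 of 8 higher in every *Aromhum* mouse, and their part was not tested. Most of the sum in Arom1 and Arom2 was Saa3, at 14215 and 11161 CPM, against 12.7 CPM in Arom3. In smooth muscle cells and pericytes, where *Cyp7b1* was highest, WT1 to WT3 had 20.2, 22.5 and 6.42 CPM and Arom1 to Arom3 had 29.5, 39.4 and 6.46 CPM, with a log2 fold change of 0.53 ± 0.538 (adjusted p = 0.602, edgeR). Glial *Cyp7b1* ranged from 11.7 to 18.2 CPM in WT and from 15.4 to 21.8 CPM in *Aromhum* mice, a log2 fold change of 0.20 ± 0.25 (adjusted p = 0.846, edgeR).

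The change with genotype was compared directly between fibroblast-like and endothelial cells, in a fit in which 15.3% of 14085 genes differed. The genotype effect of *Hsd11b1* was lower in fibroblast-like than in endothelial cells by −2.38 ± 0.25 on the log2 scale (adjusted p = 0.00216, the quasi-likelihood test of edgeR, Benjamini-Hochberg adjusted), and that of *Akr1c18* by −4.32 ± 0.77 (adjusted p = 0.0109). Without WT3 the *Akr1c18* difference missed the threshold at −3.94 (adjusted p = 0.0539), and under both upper limits of the study neither passed. *Cyp7b1* differed by 2.03 ± 0.719 (adjusted p = 0.0931) and *Srd5a1* by −1.57 ± 0.59 (adjusted p = 0.108). The endothelial side of both called differences carries the fibroblast marker values given above, and that of *Akr1c18* rests on the 4 WT and 99 *Aromhum* UMIs of 26 cells, so its difference is given as a description.

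Partners of the 6 genes were described from 7 lists. The counts in the *Esr1*-high group stand beside 8.33% of all genes higher and 8.69% lower there, and the marker values of that group given above move with them. In that group, 6 of 17 genes on the list of the *Hsd11b1* partner and glucocorticoid-responsive genes were lower in *Aromhum* mice and none was higher, with a median log2 fold change of −0.36 beside 0.01 for all genes. They were *Cdkn1a*, a cell cycle inhibitor, *Dusp1*, a phosphatase of MAP kinases, the metallothioneins *Mt1* and *Mt2*, *Tsc22d3*, which encodes the glucocorticoid-induced leucine zipper protein, and *Zbtb16*, a transcriptional repressor. *Zbtb16* had 14, 6.13 and 8.14 CPM in WT1 to WT3 and 2.16, 1.8 and 3.05 CPM in Arom1 to Arom3, and its log2 fold change of −2.14 ± 0.353 (adjusted p = 0.0097, edgeR) passed in 6 of 6 fits without 1 mouse. *Tsc22d3* had 74.5, 95.9 and 74.3 CPM in WT1 to WT3 and 28.9, 26.7 and 55.8 CPM in Arom1 to Arom3, and its log2 fold change of −1.20 ± 0.261 (adjusted p = 0.0208, edgeR) passed only in the fit without Arom3 among those 6. Of the same 6 fits, *Cdkn1a* and *Mt2* passed in 5, *Mt1* in 3 and *Dusp1* in 2. *Nr3c1*, the glucocorticoid receptor gene, and *H6pd* did not pass in this group, with log2 fold change for *H6pd* of −0.32 ± 0.207 (adjusted p = 0.311).

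Among other steroid dehydrogenases and reductases, 4 of 10 tested genes were higher in the *Esr1*-high group of *Aromhum* mice and none was lower (median log2 fold change 0.22). *Hsd11b2*, which encodes the enzyme that inactivates glucocorticoid in the opposite direction to *Hsd11b1*, had 2.02, 0 and 3.26 CPM in WT1 to WT3 and 45.8, 46.2 and 4.96 CPM in Arom1 to Arom3. Arom3 was just above WT3, and the log2 fold change was 4.2 ± 1.04 (adjusted p = 0.0305, edgeR), which passed only without Arom3 among the fits without 1 mouse (4.69, adjusted p = 2.07e-04) and reached 0.0994 in the others. *Dhrs9*, a retinol and steroid dehydrogenase gene, had 12.5, 11.8 and 13.4 CPM in WT1 to WT3 and 29, 29.5 and 25 CPM in Arom1 to Arom3. Its log2 fold change was 1.1 ± 0.147 (adjusted p = 0.005, edgeR) and passed in all 6 fits without 1 mouse. *Akr1c14*, a sister gene of *Akr1c18*, and *Hsd17b7*, which acts in cholesterol synthesis and on estrone, rose as well, with log2 fold changes of 5.29 ± 0.967 and 0.77 ± 0.155, and passed in 4 and 3 of the 6 fits without 1 mouse. *Akr1c14* reached the filter on low counts only in the *Aromhum* mice, so its direction was set.

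Of 6 tested genes on the list of steroid conjugation and hydroxylation, 3 were lower in the *Esr1*-high group of *Aromhum* mice and none was higher (median log2 fold change −0.51). *Sult1e1*, the estrogen sulfotransferase gene, had 51.4, 31.4 and 21.5 CPM in WT1 to WT3 and 1.49, 3.04 and 2.33 CPM in Arom1 to Arom3. *Sult1a1*, a phenol and estrogen sulfotransferase gene, had 21.5, 16.2 and 22.2 CPM in WT1 to WT3 and 1.42, 1.9 and 3.05 CPM in Arom1 to Arom3. Neither gene overlapped between genotypes. The log2 fold changes were −4.01 ± 0.387 for *Sult1e1* and −3.32 ± 0.278 for *Sult1a1* (adjusted p = 0.0023 for both, edgeR), and both passed in all 6 fits without 1 mouse. *Papss2*, which makes the sulfate donor, was also lower, at −0.68 ± 0.137, and passed in 4 of the 6.

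Of the steroid synthesis list, 1 of 8 tested genes passed in the *Esr1*-high group. *Star*, which carries cholesterol into mitochondria, had 10.4, 12 and 10.1 CPM in WT1 to WT3 and 45.6, 28.1 and 48.2 CPM in Arom1 to Arom3, a log2 fold change of 1.85 ± 0.224 (adjusted p = 0.004, edgeR) that passed in all 6 fits without 1 mouse. Among oxysterol genes, 3 of 7 were lower and none higher (median −0.34): *Abcg1*, a sterol exporter gene, and the sterol hydroxylase genes *Cyp27a1* and *Cyp39a1*, whose log2 fold changes were −0.87 ± 0.228, −1.56 ± 0.415 and −1.26 ± 0.338, and which passed in 1, 1 and 2 of the 6 fits without 1 mouse. None of 13 peroxisomal genes passed around *Hsd17b4*. Of 6 lipid droplet genes *Faf2* was higher and *Plin3* and *Pnpla2* were lower, and they passed in 2, 1 and 2 of the 6 fits without 1 mouse.

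The same lists were read over all fibroblast-like cells, beside 7.25% of all genes higher and 5.8% lower. There 3 of 10 synthesis genes were higher (*Star*, *Cyp21a1* and *Cyb5b*), 3 of 11 dehydrogenases and reductases were higher (*Hsd11b2*, *Akr1c14* and *Dhrs9*), 2 of 9 conjugation genes were lower (*Sult1a1* and *Papss2*), 2 of 8 oxysterol genes were lower (*Cyp27a1* and *Cyp39a1*), and 2 of 17 genes on the *Hsd11b1* partner and glucocorticoid-responsive list were lower (*Cdkn1a* and *Pdk4*). Of 13 peroxisomal genes none passed, and of 7 lipid droplet genes *Faf2* was higher and *Lipe* and *Pnpla2* were lower. All of these passed in the fit without Arom3, and only *Star* passed in more than 1 of the 6 fits without 1 mouse. The count of all called genes was 1820 with all mice, 4123 without Arom3 and 4 to 123 without any other single mouse.

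*Cyp21a1*, the steroid hydroxylase of corticoid synthesis, had 0 UMIs in the fibroblast-like cells of WT mice and 459 in those of *Aromhum* mice. It was at least 59.2-fold higher over all fibroblast-like cells and at least 36-fold higher in the *Dmkn*-high group, with the WT level set to 3 counts over the group. Its *Dmkn*-high levels were 15.5, 8.7 and 7.03 CPM in Arom1 to Arom3. The gene overlaps *Tnxa* and has a closely related copy, so its count is uncertain. It reached the filter on low counts only in the *Aromhum* mice wherever it was called, so its direction was set and its calls are no support. The 8 *Mmp3*-high markers moved with it in that group, from 1084 to 1749 CPM in WT to 2042 to 7162 CPM in *Aromhum* mice with 5 of 8 higher in every *Aromhum* mouse, and their part was not tested.

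In endothelial cells the lists gave calls in both directions, beside 11.1% of all genes higher and 8.52% lower. The 9 fibroblast markers, 422 to 543 CPM in WT and 1856 to 4632 CPM in *Aromhum* mice, moved with them, and their part was not tested. Of 17 genes on the list of the *Hsd11b1* partner and glucocorticoid-responsive genes, *Errfi1*, *Fkbp5*, *H6pd* and *Pdk4* were higher and *Ddit4* and *Dusp1* lower (median log2 fold change −0.02, as for all genes). *Fkbp5*, a co-chaperone of steroid receptors, had 10.2, 5.98 and 8.49 CPM in WT1 to WT3 and 30.5, 28.7 and 18.6 CPM in Arom1 to Arom3, with a log2 fold change of 1.58 ± 0.24 (adjusted p = 0.0048, edgeR) that passed in all 16 alternatives. Of 6 conjugation genes, *Cyp1a1* and *Cyp1b1* were higher and *Sult1a1* and *Papss2* lower. *Sult1a1* fell from 157, 182 and 103 CPM in WT1 to WT3 to 58.2, 67.7 and 73.3 CPM in Arom1 to Arom3, and its log2 fold change of −1.21 ± 0.198 also passed in all 16. *Akr1c14* was lower here, at −1.06 ± 0.201, in contrast to the *Esr1*-high group, a difference that was not tested. Of 6 lipid droplet genes, *Lipe* and *Pnpla2* were lower, and 1 of 8 oxysterol genes, *Abca1*, was higher. *Fkbp5*, *Sult1a1*, *Akr1c14*, *Errfi1*, *Pdk4*, *Cyp1b1* and *Abca1* passed in 6 of 6 fits without 1 mouse, *Papss2* in 0 of 6 and the other partners named here in 1 to 3 of 6.

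In smooth muscle cells and pericytes, 2 partners passed, beside 2.59% of all genes. *Cyp1b1*, a hydroxylase of estradiol, had 6, 1.96 and 1.83 CPM in WT1 to WT3 and 51.2, 110 and 12.9 CPM in Arom1 to Arom3, and *Por*, the electron donor of microsomal cytochromes P450 such as *Cyp7b1*, had 43.6, 38.2 and 37.1 CPM and 124, 123 and 66.2 CPM. All *Aromhum* mice were above all WT mice for both, with log2 fold changes of 4.06 ± 0.738 and 1.32 ± 0.222 (adjusted p = 0.0254 and 0.0197, edgeR), and each passed in 1 of 6 fits without 1 mouse, the one without Arom3. The 9 fibroblast markers summed to 1987 to 4075 CPM in these cells of WT and 4585 to 5369 CPM of *Aromhum* mice, and the 8 *Mmp3*-high markers to 196 to 215 and 506 to 691 CPM with 7 of 8 higher in every *Aromhum* mouse; their part was not tested. In the FAP group, beside 3.53% of all genes called, *Hsd11b2* and *Akr1c14* were higher and *Sult1a1*, *Cyp27a1*, *Cdkn1a*, *Pdk4* and *Tsc22d3* lower, as in the *Esr1*-high group or over all fibroblast-like cells, and *Cyp21a1* was higher. Of these 8, *Cyp21a1* and *Pdk4* passed in 4 of 6 fits without 1 mouse, *Cyp27a1* in 3 and the others only without Arom3, and the 8 *Mmp3*-high markers summed to 1636 to 1767 CPM in FAP cells of WT and 3020 to 4775 CPM of *Aromhum* mice. In the tenocyte group, beside 1.86% of all genes, 4 partners passed (*Sult1a1*, *Abca1*, *Cdkn1a* and *Acox3*, all lower; 2, 2, 1 and 0 of 6 fits without 1 mouse), and *Fdx1* was lower in the *Dmkn*-high group, beside 0.947% of all genes, at −0.68 ± 0.111, passing only without Arom3 among the 6. *Sult1a1* was the only partner called in myonuclei, beside 0.259% of all genes, where it was lower and again passed only without Arom3. There, and for *Pdk4* in the FAP group, the filter on low counts was reached only in WT mice.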

How the data were processed

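Lower abdominal muscle of 3 WT and 3 *Aromhum* mice was profiled by 10x single-cell RNA-Seq. The authors aligned reads to mm10 with the human *CYP19A1* sequence added and counted UMIs with Cell Ranger (version 3.0.2); the deposited table holds UMI counts per gene and barcode, not normalized. The strand setting of the counting is not given in the sources used here, so reads of overlapping genes cannot be told apart. Samples were grouped by the genotype in the labels; nothing in the labels says what a mouse number shares across genotypes.

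Barcodes with at least 200 genes and 1000 UMIs were kept. The upper limits of the study, 2500 genes and 5% mitochondrial UMIs, would have left 18852 cells and were run as an alternative. Counts were scaled to 10000 per cell, and 2000 variable genes without the 6 members and the genes of the 7 partner lists gave 30 principal components, 20 neighbors and Leiden clusters (in place of Louvain) at resolution 0.8, with scanpy (version 1.11.5) and leidenalg (version 0.10.2) in Python (version 3.11.15). Clusters were named from marker lists, and the share of a list that a cluster had to show was set after the clusters were seen. Doublets were marked by Scrublet, which marked 0 cells of WT3 and 1.28% to 2.92% of the others, and were left out as an alternative only.

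For each mouse, the UMIs of a cell type were added up, so that the mouse is the replicate. Levels needed at least 10 cells in a mouse and tests at least 20 in every mouse, which left out T cells and the *Mmp3*-high group. Sums were compared with the quasi-likelihood test of edgeR (version 4.0.16, R version 4.3.3) with TMM scaling, its filter on low counts and Benjamini-Hochberg adjustment over all genes tested, at a threshold of 0.05. DESeq2 (version 1.42.0) and limma (version 3.58.1) served alternatives. The edgeR script was tested on simulated data. Intervals on counts are exact 95% intervals, and a count of 0 was given an upper limit of 3 counts. In the *Mmp3*-high group a count of 0 was instead given the upper bound of its 95% Poisson interval.

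The result of 1 partner list in endothelial cells is not reported here. The members are all named, and partner genes are named where they passed the test or are a member's direct partner. The members and lists were chosen with earlier results of these data known. Groups of adjacent columns in place of clusters, and fits without the *Mmp3*-high or *Dmkn*-high group, were chosen after seeing the data. Promoters came from RefSeq (GRCm38.p6), where 4 of 6 members matched.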

Additional observations from a re-analysis of the deposited data

Results flagged for a closer look

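The genotype effect differed between fibroblast-like and endothelial cells for 2 of the 6 genes, beside 15.3% of 14085 genes. The test was the interaction test of edgeR with Benjamini-Hochberg adjustment. For *Akr1c18* the effect in fibroblast-like cells minus that in endothelial cells was −4.32 on the log2 scale (adjusted p = 0.0109), and for *Hsd11b1* it was −2.38 (adjusted p = 0.00216). The 9 fibroblast markers summed to 422 to 543 CPM in the endothelial cells of WT mice and to 1856 to 4632 CPM in those of *Aromhum* mice, and their part in both differences was not tested. The endothelial *Akr1c18* rested on 4 UMIs in WT and 99 in *Aromhum* mice, so that difference is a description.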

How the results depend on the processing

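The deposited table has 3 mice per genotype, and in fibroblast-like cells most calls were lost without any 1 mouse other than Arom3 and more genes were called without Arom3. Rare genes such as *Akr1c18* and *Srd5a1* outside their main cell type rest on few UMIs. Of 1250 alternative values for 82 results on single genes, 884 kept their direction and their side of the threshold, 358 kept the direction but were no longer past the threshold, 4 passed newly and 4 changed sign. Those that changed sign were *Hsd17b4* in fibroblast-like cells, which ranged from −0.11 to 0.01 without 1 mouse (0.01 without WT2 and 0.00 without Arom2) and was 0.15 under all limits of the study, and *Star* there, at −0.03 under all limits. The cause was not tested.

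The number of the 6 genes called over all cells, 0, became 2 in DESeq2 and 0 to 2 without 1 mouse. In fibroblast-like cells 0 became 1 in DESeq2, 1 with equal weight of the groups and 0 to 2 without 1 mouse, 2 being without Arom3. The 2 calls in fibroblast groups became 0 under all limits and 1 under the mitochondrial limit alone, where the *Esr1*-high group was not tested and the call was *Hsd17b11* in the FAP group, and 1 to 5 without 1 mouse. The 3 calls in other cell types became 0 under all limits and under the mitochondrial limit, 1 at resolution 0.4, 1 with groups of adjacent columns and 2 to 6 without 1 mouse. The main counts in fibroblast groups and in other cell types each include *Akr1c18*, which reached the filter there only in *Aromhum* mice. Without Arom3 they also include *Cyp7b1* in the *Dmkn*-high group and endothelial cells, at the filter only in Arom1 and Arom2. The 2 calls on the difference between fibroblast-like and endothelial cells became 0 under all limits and 1 to 3 without 1 mouse. Under all limits *Akr1c18* was highest in macrophages and *Cyp7b1* in glial cells, and 4 of 6 genes kept their highest type. The *Esr1*-high group was not tested under all limits or the mitochondrial limit, where not every mouse kept 20 of its cells, nor with adjacent columns, which were not divided into fibroblast groups. Under all limits the mean of *Hsd11b1* in that group was 141 CPM in WT and 183 CPM in *Aromhum* mice, the opposite direction.

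Over all genes, 3607 calls in all cells became 5479 in DESeq2, 0 under all limits, 2397 under the mitochondrial limit and 0 to 4819 without 1 mouse. In fibroblast-like cells 1820 became 2870, 1 and, without 1 mouse, 4 to 4123. In the *Esr1*-high group 2092 became 3259 at resolution 0.4 and 580 to 3181 without 1 mouse, and in endothelial cells 2446 became 841 under all limits, 1135 under the mitochondrial limit, 1314 with adjacent columns and 936 to 2844 without 1 mouse.

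Mice with the same number had correlated deviations from their group means of 0.246, −0.024 and 0.302 over all cells, 0.205, −0.134 and 0.153 in fibroblast-like cells and 0.144, 0.137 and 0.273 in endothelial cells, so in endothelial cells, but not in the other sets, every same-number pair was over 0.1 and the highest for its mice. The study processed 1 WT and 1 *Aromhum* littermate per date, but the labels do not tie the numbers to dates, and the mice were taken to share only a number. With the replicate number as a block, calls were 1 over all cells, 4 in fibroblast groups and 5 in other cell types. The added calls were *Akr1c18* over all cells (1.41, adjusted p = 0.0364), *Cyp7b1* in the *Esr1*-high group (2.28, 0.00688), the FAP group (1.55, 0.0306) and mesothelial cells (2.24, 0.0297), and *Hsd11b1* in glial cells (1.06, 0.022). The 3 endothelial calls held under the block. Calls over all genes changed under the block too. They rose from 3607 to 4020 of 15334 over all cells and from 2092 to 2542 of 12287 in the *Esr1*-high group. The FAP group went from 402 to 806 of 11397 and endothelial cells from 2446 to 3312 of 12487. Mesothelial cells went from 26 to 460 of 11709 and glial cells from 45 to 185 of 9509. In fibroblast-like cells calls fell from 1820 to 1368 of 13949.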
